A study of Mus musculus with 10 samples.

Results

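The RUNX proteins and the Eto corepressors were followed in haematopoietic stem cell-enriched cells of mice that had lost Mll. The genes were Runx1, Runx2, Runx3 and Cbfb, which make up core-binding factor, and Runx1t1, Cbfa2t2 and Cbfa2t3, the Eto family. All probe sets that the array's annotation pairs with 1 of these symbols and no other were taken, which gave 22 of 45037 probe sets and covered 6 of the 7 genes. No probe set was named for Runx2, so it has no value here. The study set LSK/CD48- bone marrow cells, which are lineage-negative, Sca-1-positive, Kit-positive and CD48-negative, of 5 Mll-deficient mice against those of 5 control mice, with 1 Affymetrix Mouse Genome 430 2.0 array for each mouse. The Mll-deficient mice were Mx1-cre;Mll F/F, carrying floxed Mll alleles and a cre transgene driven by the interferon-inducible Mx1 promoter. The control mice were Mll F/F and had no cre, so effects of cre and of Mll loss cannot be told apart. Every mouse of both groups was a female aged 8 weeks on a B6.SJL-Ptprca Pep3b/BoyJ background and received 3 injections of pI:pC, a double-stranded RNA that induces interferon, 48 hours apart, with marrow taken on day 6. Mx1-cre is active in many interferon-responsive cells, not in blood cells alone.

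Core-binding factor is a heterodimer. A RUNX protein binds DNA through its Runt domain, and CBFB, which does not bind DNA itself, strengthens that binding and protects the RUNX protein from degradation. RUNX1 is needed for the emergence of blood stem cells in the embryo and for megakaryocyte and lymphoid development in the adult, RUNX3 acts in T and natural killer cells, and RUNX2 directs osteoblast formation. The Eto proteins bind no DNA on their own and bring histone deacetylases and NCoR or SMRT to transcription factors. CBFA2T3, also called ETO2 or MTG16, sits in the TAL1, GATA1 and LDB1 complex of erythroid and megakaryocytic cells. In human acute myeloid leukaemia a recurrent translocation joins RUNX1 to RUNX1T1, and biochemical work has found RUNX1 bound to MLL.

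Each RUNX gene is known to be read from a distal and a proximal start, and RUNX proteins bind the hexamer TGTGGT and its variant TGCGGT. RefSeq windows of the GRCm38.p6 build, from 250 bases before to 50 after each start, were searched on both strands for these letters, and the 2 motifs cannot match at the same base of a strand because they differ at 1 letter. Either motif occurred in 22.4% of all 32851 windows and in 4 of the 9 windows of the members. The windows of Runx1, Runx2 and Runx3 below share a pair of TGTGGT sites on the opposite strand, read as ACCACA, spaced by GA. They are shown because 1 start of each of these genes holds the motif their proteins bind, and 30 bases are printed for each in the gene's direction, with the ACCACA sites in capitals.
Runx1 at chr16:92826025-92826054, minus strand, first site 29 bases into the transcript: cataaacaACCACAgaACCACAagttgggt
Runx2 at chr17:44814583-44814612, minus strand, first site 24 bases into the transcript: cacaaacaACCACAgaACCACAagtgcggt
Runx3 at chr4:135120503-135120532, plus strand, first site 134 bases before the start: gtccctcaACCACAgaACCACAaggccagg
This 14-base run, on either strand, was found in 4 of the 32851 windows, or 0.0122%, and these lay at Runx1, Runx2, Runx3 and Gm16225.

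Sequence composition differed between the starts of a gene. The distal window of Runx1 held 2 CpG dinucleotides and its proximal window 35, while the median over all windows was 7. Runx3 had 8 in the distal and 45 in the proximal window, and Cbfa2t3 had 10 and 53. The single windows of Cbfb and Cbfa2t2 held 30 and 51, and that of Runx2 held 2. The distal window of Cbfa2t3 had 1 TGCGGT site. The Runx2 window also had 1, which closes its printed stretch in lower case. It held a further TGTGGT site on the opposite strand, 80 bases before the start. Neither motif was found in the proximal windows of Runx1, Runx3 and Cbfa2t3 or in the windows of Cbfb and Cbfa2t2. Such a match is a description of the letters and says nothing about binding in these cells, and which start a probe set reads was not analysed here. No window was given for Runx1t1.

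Median signals of the 10 arrays ran from 18.1 to 28.9 arbitrary units, and pairs of arrays correlated at 0.889 to 0.964 over the 27022 probe sets kept by the filter on dim values. Against its own group, control replicate 5 correlated at 0.918 on average, and the other arrays at 0.946 or more. The same array had the most 3' signal for Gapdh and Actb, 5.19 log2 units above their middle probe sets, where the other arrays had 1.73 to 3.86. This 3' to middle ratio is used here as a sign of RNA quality, and the part of RNA amplification in it was not tested. Kmt2a, which encodes Mll, had 2 probe sets and neither passed the test. The brighter one differed by -0.38 ± 0.36 (SE, limma adjusted p = 0.634) and the dimmer one by -0.55 ± 0.30 (adjusted p = 0.347). The place of these probe sets relative to the floxed part was not analysed here, and they test no label. Of the genes that define the sort, Kit averaged 72.3 ± 27.0 in Mll-deficient cells and 126 ± 34.2 in control cells (SD, n = 5 each), and Cd48 averaged 124 ± 41.5 and 109 ± 63.1. Neither passed the test in limma (adjusted p = 0.132 and 0.722). The stem cell markers Procr and Slamf1 averaged 538 ± 296 and 54.8 ± 6.65 in Mll-deficient cells and 1124 ± 562 and 101 ± 39.0 in control cells, and did not pass either (adjusted p = 0.0863 and 0.139). Of these 4 genes, Kit, Procr and Slamf1 had an unadjusted p under 0.05, all with a difference below 0, and the part of the cell makeup in the members' values was not tested. Ly6a, which encodes Sca-1, had no value here.

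RNA of Runx1, Runx3, Cbfb, Cbfa2t2 and Cbfa2t3 was measured well above the dim end of the array in both groups, and Runx1t1 was not. No member changed between Mll-deficient and control cells past the test. Of the 22 probe sets, 15 had a mean above the 40th percentile and were tested, and 7 were not: all 6 of Runx1t1 and 1 of Runx3. Of the 15 tested, 0 passed an adjusted p of 0.05 in limma, where 3.28% of all tested probe sets did (2.12% with a higher and 1.16% with a lower level in the Mll-deficient arrays). At an unadjusted p under 0.05 there were 2 of 15, or 13.3%, beside 18.3% of all tested probe sets. The arrays of the groups overlapped for all 15, and they did not overlap for 5.68% of all tested probe sets. With 15 probe sets these counts do not set the members apart from the array, and they do not show that the members were unchanged. Of the 15 differences 12 lay below 0, which is 80.0%, with a median of -0.29, while 57.1% of all tested probe sets lay below 0, with a median of -0.07. Probe sets of 1 gene share a transcript, so these are 5 genes rather than 15 independent values.

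**Figure D1:**
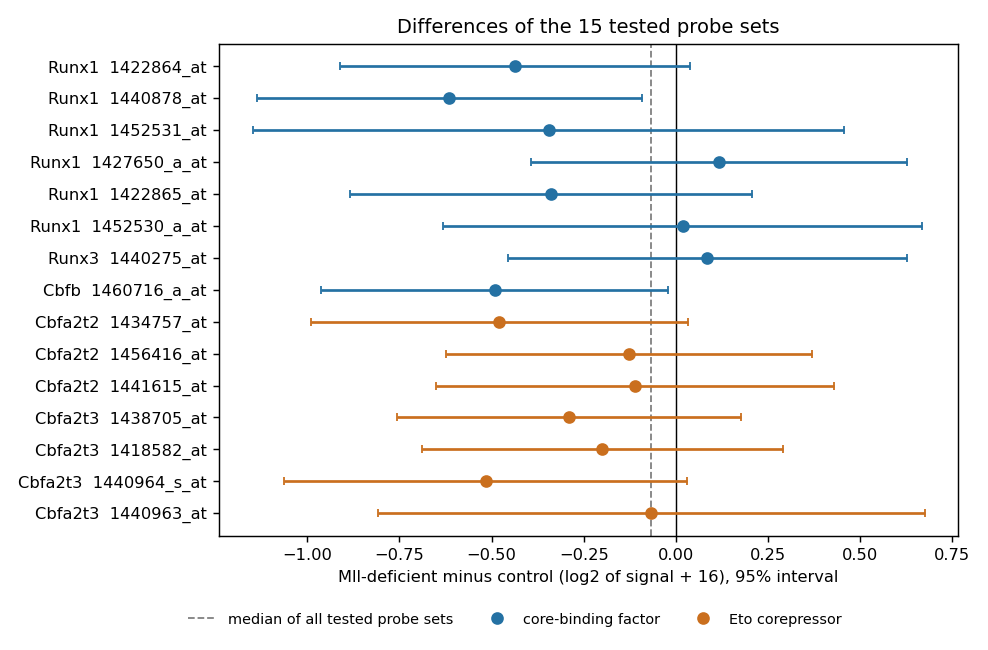
Log2 difference between Mll-deficient and control cells for each of the 15 tested probe sets, with its 95% interval from limma, core-binding factor genes in blue and Eto genes in orange. The points lie between -0.61 and 0.12, the dashed line at -0.07 is the median of all 27022 tested probe sets, and the intervals take in 0 except for the second brightest Runx1 probe set and for Cbfb.

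Among the DNA-binding subunits, Runx1 had 6 tested probe sets. The brightest read 770, 871, 603, 858 and 623 in the Mll-deficient arrays 1 to 5, against 912, 794, 1340, 774 and 1339 in the control arrays. Control replicates 3 and 5 stood above the rest, and the other 3 controls lay within or close to the range of the Mll-deficient arrays. Mean signal was 745 ± 127 in Mll-deficient cells and 1032 ± 286 in control cells (SD, n = 5 each). On the log2 scale this was -0.44 ± 0.23 (SE, limma adjusted p = 0.321, 95% interval -0.91 to 0.04). As a ratio to control cells the interval runs from 0.532 to 1.03.

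The second brightest Runx1 probe set had the smallest adjusted p of all members. It read 389, 533, 530, 553 and 477 in Mll-deficient cells, against 813, 645, 1007, 438 and 1109 in control cells. Control replicate 4 was the one control inside the Mll-deficient range. The difference was -0.61 ± 0.25 (SE, limma adjusted p = 0.191, 95% interval -1.14 to -0.09), with an unadjusted p of 0.0236. Without 1 array it ran from -0.48 without control replicate 5 (adjusted p = 0.276) to -0.81 without control replicate 4 (adjusted p = 0.0883). With all arrays it ran from -0.52 with array weights (adjusted p = 0.233) to -0.66 with the 3' to middle ratio as a covariate (adjusted p = 0.0566). It passed the threshold under none of the alternatives run.

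The remaining Runx1 probe sets were dimmer and differed by between -0.35 and 0.12, with adjusted p between 0.532 and 0.983 in limma. These values moved with single arrays. The third brightest varied widely inside each group, between 82.9 and 333 in Mll-deficient cells and between 66.5 and 355 in control cells. Its difference of -0.35 was -0.66 without control replicate 3 and -0.12 without control replicate 5. That of the fourth brightest, 0.12, was 0.0045 without Mll-deficient replicate 3 and 0.26 without Mll-deficient replicate 2, and that of the fifth, -0.34, was -0.17 without Mll-deficient replicate 5. Each of the 5 was also set against the brightest one within each array, and so was every further probe set of Cbfa2t2 and Cbfa2t3, which gave 10 pairs. The smallest p was 0.167, or 0.714 adjusted, for the brightest Runx1 probe set against the fourth brightest (two-sided exact permutation test). The smallest p that 5 arrays against 5 allow is 0.00794, so 1 pair alone could not pass after adjustment over 10 pairs, and unequal change between parts of a transcript is not settled by these arrays.

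Runx3, the RUNX gene of T and natural killer cells, had 1 tested probe set. It read 484, 511, 483, 836 and 860 in Mll-deficient cells and 461, 526, 668, 428 and 915 in control cells. High and low arrays occurred in both groups. The mean was 635 ± 195 in Mll-deficient cells and 599 ± 199 in control cells (SD, n = 5 each), a difference of 0.09 ± 0.26 (SE, limma adjusted p = 0.905, 95% interval -0.46 to 0.63). The other probe set was dim, with a mean of 6.56 ± 3.46 in Mll-deficient cells and 10.5 ± 6.59 in control cells (SD, n = 5 each). Of 14 genes that mark T and natural killer cells, 8 were tested, and 0 passed in limma, with 1 at an unadjusted p under 0.05 and a summed signal between 822 and 1841 in Mll-deficient cells and between 542 and 893 in control cells. The median difference of the 8 was 0.33, with 1 below 0. Nkg7, a granule gene of natural killer and cytotoxic T cells, was the brightest of them and averaged 871 ± 278 in Mll-deficient cells and 447 ± 145 in control cells, a difference of 0.96 ± 0.28 (SE, limma adjusted p = 0.0583). The T cell genes Cd3d and Cd8a averaged 35.9 and 17.7 in Mll-deficient cells and 27.2 and 14.0 in control cells. In sorted bulk samples, fewer cells of a type and less RNA per cell cannot be told apart, and the part of T and natural killer cells in the Runx3 signal was not tested.

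Cbfb, the shared partner subunit, had 1 probe set. It read 1010, 1355, 721, 867 and 1013 in Mll-deficient cells, against 1304, 1235, 1732, 1710 and 1025 in control cells. Mll-deficient replicate 2 lay above control replicates 1, 2 and 5, and the other Mll-deficient arrays lay below every control array. The mean was 993 ± 235 in Mll-deficient cells and 1401 ± 310 in control cells (SD, n = 5 each), a difference of -0.49 ± 0.22 (SE, limma adjusted p = 0.250, unadjusted p = 0.0415, 95% interval -0.96 to -0.02). Without 1 array the difference ran from -0.39 without Mll-deficient replicate 3 (adjusted p = 0.450) to -0.61 without Mll-deficient replicate 2 (adjusted p = 0.166), and the smallest adjusted p was 0.131, without control replicate 5.

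**Figure D2:**
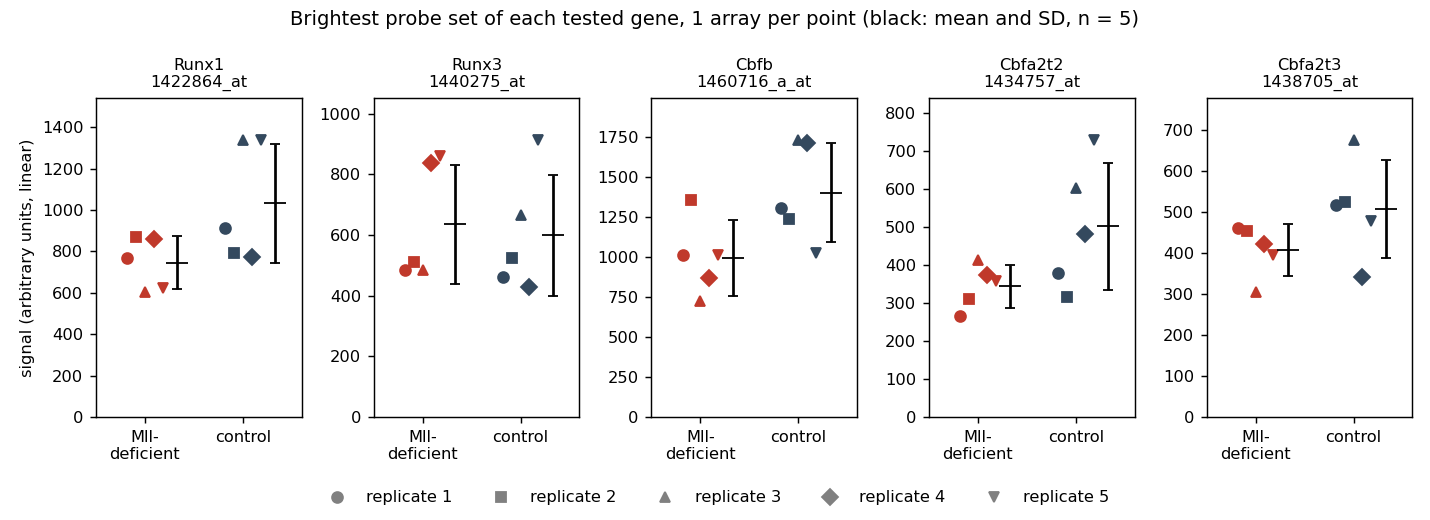
Linear signal on each array for the brightest probe set of the 5 tested genes, Mll-deficient arrays left of control arrays, with the marker giving the replicate number and black bars the mean and SD of 5 arrays. The groups overlap for each gene, and control replicates 3 and 5 are the high points for Runx1 and Cbfa2t2.

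Among the Eto corepressors, Runx1t1 gave almost no signal. Its 6 probe sets lay between 0.0912 and 16.4 in Mll-deficient cells and between 0.474 and 21.4 in control cells, and the percentile of their mean among all probe sets ran from 1.89 to 30.0. In a fit without the filter on dim values 0 of the 6 passed (smallest limma adjusted p = 0.466), where 1.31% of all probe sets did. Signals this low give no order between the groups.

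Cbfa2t2, also called MTGR1, had 3 tested probe sets. The brightest read 264, 311, 412, 372 and 356 in Mll-deficient cells, against 378, 316, 601, 480 and 729 in control cells. The high values again came from control replicates 3 and 5. The mean was 343 ± 56.9 in Mll-deficient cells and 501 ± 167 in control cells (SD, n = 5 each), a difference of -0.48 ± 0.24 (SE, limma adjusted p = 0.310, 95% interval -0.99 to 0.03). With all arrays it ran from -0.39 with array weights (adjusted p = 0.360) to -0.53 with the 3' to middle ratio as a covariate (adjusted p = 0.0745). Without control replicate 5 it was -0.33 (adjusted p = 0.465), without control replicate 3 -0.40 (adjusted p = 0.492) and without control replicate 2 -0.62 (adjusted p = 0.171). The other probe sets averaged 31.2 and 26.5 in Mll-deficient cells and 35.4 and 30.8 in control cells, with differences of -0.13 and -0.11 (adjusted p = 0.834 and 0.869).

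Cbfa2t3, the Eto member of the erythroid TAL1 complex, had 4 tested probe sets, all with a difference below 0 and none past the test. The brightest read 462, 455, 305, 422 and 396 in Mll-deficient cells, against 519, 526, 677, 343 and 478 in control cells. Apart from control replicate 4, the controls lay above every Mll-deficient array. The mean was 408 ± 63.4 in Mll-deficient cells and 508 ± 120 in control cells (SD, n = 5 each), a difference of -0.29 ± 0.22 (SE, limma adjusted p = 0.532, 95% interval -0.76 to 0.18). The second brightest differed by -0.20 (adjusted p = 0.714), the third by -0.52 ± 0.26 (adjusted p = 0.306) and the dimmest by -0.07 (adjusted p = 0.944). Without 1 array the brightest ran from -0.42 without control replicate 4 to -0.18 without control replicate 3, and the second brightest from -0.30 without Mll-deficient replicate 5 to -0.09 without Mll-deficient replicate 3. With offset 1, with quantile normalization and with the 3' to middle ratio as a covariate the dimmest lay above 0, at 0.08, 0.05 and 0.03. Its leave-one-out values ran from -0.45 without control replicate 5 to 0.14 without control replicate 2. The 95% intervals of the 3 brighter probe sets ended at 0.18, 0.29 and 0.03.

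The slope of each member on the RNA quality ratio was computed after the data had been seen. The 3 member slopes that passed did not pass without control replicate 5, and the other member slopes were not looked at without it. In the limma fit with the group and the 3' to middle ratio as terms, 3 of the 15 member probe sets had a slope on the ratio past an adjusted p of 0.05, beside 12% of all tested probe sets. Runx3 had a slope of 0.33 ± 0.09 log2 units per unit of the ratio (SE, limma adjusted p = 0.0283), and the brightest Cbfa2t2 probe set one of 0.29 ± 0.09 (adjusted p = 0.0494). The dimmest tested Cbfa2t3 probe set had the opposite sign, at -0.50 ± 0.13 (adjusted p = 0.0218), and read 6.34 in control replicate 5 against 50.8 to 100 in the other controls. Without control replicate 5 the slopes were 0.42 ± 0.17, 0.35 ± 0.17 and -0.12 ± 0.21 (SE) and did not pass (limma adjusted p = 0.294, 0.389 and 0.865), where 0.133% of all tested probe sets did. Those of Runx3 and Cbfa2t2 were no smaller and had a larger SE, while that of Cbfa2t3 was smaller in size. The ratio itself averaged 3.14 ± 0.60 in Mll-deficient cells and 2.95 ± 1.41 in control cells (SD, n = 5 each), a difference smaller than the spread (two-sided exact permutation p = 0.810). Control replicate 5 was the highest array for 6 of the 15 tested probe sets and control replicate 3 for 4, while Mll-deficient replicate 3 was the lowest for 4.

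**Figure D3:**
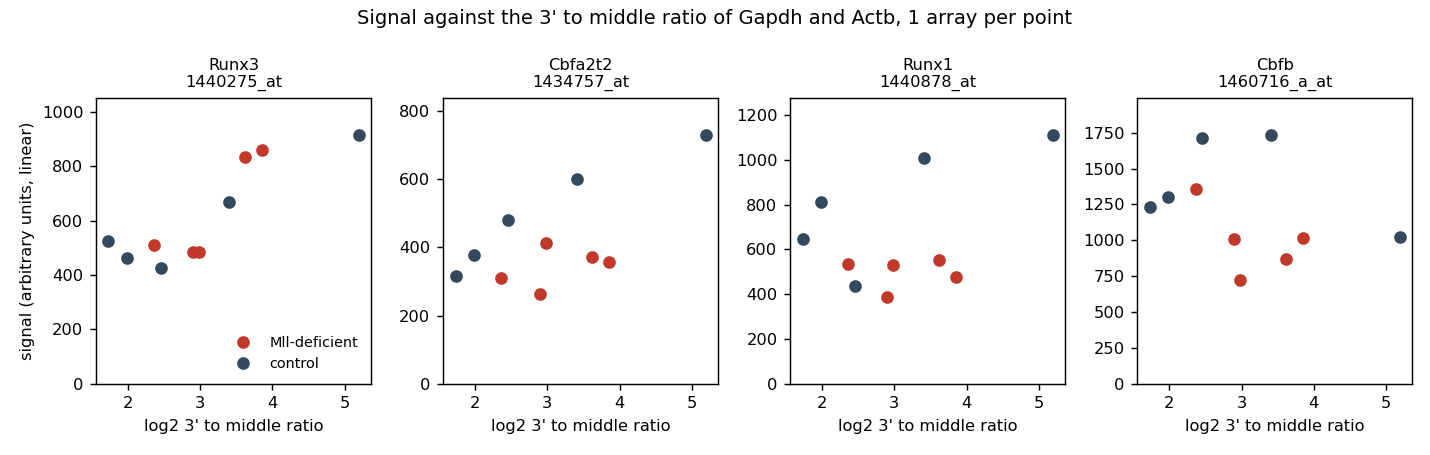
Linear signal of 4 member probe sets against the log2 3' to middle ratio of Gapdh and Actb, 1 point for each array, Mll-deficient in red and control in dark blue. Runx3 and Cbfa2t2 are highest in control replicate 5, which has the highest ratio at 5.19, and Cbfb in that array is the lowest of the controls.

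After the group means were taken out, the members showed no shared pattern over the 10 arrays that passed a test. The 10 pairs of the 5 brightest probe sets were compared, and 0 passed after adjustment. The highest was Runx1 with Cbfa2t3, with a Pearson r of 0.65 (permutation p = 0.0736, adjusted p = 0.436) and a Spearman rho of 0.56 (permutation p = 0.142, adjusted p = 0.529). Without control replicates 3 and 5, the arrays farthest from the median, r was 0.66. With quantile normalization this pair passed by r, at 0.74 (permutation p = 0.00227, adjusted p = 0.0227), and not by rho, at 0.76 (permutation p = 0.0144, adjusted p = 0.144). Among the 12579 other tested genes, the ones whose values followed the brightest Runx1 probe set most closely over the 10 arrays were Zfp953 (r = 0.96), Socs3 (r = 0.96) and Zkscan6 (r = 0.94). For Cbfb they were Fcgrt, Zcchc2 and Xiap (r between 0.97 and 0.99), for Runx3 Rwdd4a, Eef1b2 and Ddx52 (0.94 to 0.96), for Cbfa2t2 Zfp810, Spint2 and Cggbp1 (0.94 to 0.95), and for Cbfa2t3 Rilpl1, Cd96 and Smad3 (0.89 to 0.92). These are the highest of many, over arrays that share groups and RNA quality, and are given as a description with no test.

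Genes that work with the members or under them were read from the fit over 12580 genes, each represented by its brightest probe set, where 5.52% passed, 3.76% higher and 1.76% lower in Mll-deficient cells, and the median difference was -0.04. In it the 5 tested members again gave 0 calls in limma, with 1 at an unadjusted p under 0.05, Cbfb, where 20.7% of genes had one. The groups overlapped for all 5, and did not overlap for 6.96% of these genes. Of 16 tested cofactors of RUNX proteins, 1 rose, 1 fell and 14 did not pass, with a median of -0.31. Kmt2a, the gene that encodes Mll, is 1 of these 16, at -0.38 ± 0.36 (SE, limma adjusted p = 0.610). Prmt1, an arginine methyltransferase that modifies RUNX1, read 2784, 2675, 3250, 2408 and 2831 in Mll-deficient cells, against 1408, 2034, 1634, 1173 and 1036 in control cells. The groups did not overlap, and the difference was 0.96 ± 0.21 (SE, limma adjusted p = 0.0133). Ep300, the acetyltransferase p300, read 356, 410, 190, 415 and 175 in Mll-deficient cells, against 906, 444, 566, 791 and 543 in control cells, a difference of -1.07 ± 0.28 (SE, limma adjusted p = 0.0350). Again the groups did not overlap. Its call ended with median centring (adjusted p = 0.0701) and without Mll-deficient replicate 1, 3 or 5 or control replicate 1, 3 or 4, where the highest adjusted p was 0.101. Its relative Crebbp, at -0.47 ± 0.23, and the Groucho corepressor gene Tle4, at -0.85 ± 0.28, did not pass (adjusted p = 0.259 and 0.0861).

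Of 10 tested genes of the corepressor complexes that Eto proteins bring in and of repressors that work through them, 0 passed in limma. The median was 0.12, and 1 of the 10, Bcl6, had an unadjusted p under 0.05 in limma. The deacetylase genes Hdac1, Hdac2 and Hdac3 differed by 0.29, 0.28 and 0.49 (adjusted p = 0.411, 0.561 and 0.350). Bcl6, a DNA-binding repressor rather than a part of these complexes, was nearest to the threshold at -1.05 ± 0.30 (adjusted p = 0.0528).

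Of 14 genes of the TAL1 and GATA complex in which CBFA2T3 sits, 4 rose and 10 did not pass, with a median of 0.33. Gata1, the erythroid and megakaryocytic GATA factor, averaged 1098 ± 294 in Mll-deficient cells and 362 ± 143 in control cells (SD, n = 5 each), a difference of 1.63 ± 0.30 (SE, limma adjusted p = 0.00589). Gfi1b, a repressor of the same lineages, rose by 1.46 ± 0.35 (adjusted p = 0.0251), Zfpm1, the GATA1 cofactor, by 1.10 ± 0.27 (adjusted p = 0.0277), and Tcf3, an E protein that pairs with TAL1, by 1.04 ± 0.23 (adjusted p = 0.0161). Tal1 itself was at 0.74 ± 0.21 (adjusted p = 0.0520), while Ldb1 and Lmo2, the bridge of the complex, were at 0.15 and -0.04 (adjusted p = 0.893 and 0.947). Gata2, the GATA factor of stem and progenitor cells, averaged 922 ± 140 in Mll-deficient cells and 1419 ± 401 in control cells (SD, n = 5 each), a difference of -0.58 ± 0.22 that did not pass (adjusted p = 0.131). The call of Gfi1b ended without Mll-deficient replicate 1, 3 or 5 or control replicate 4 (highest adjusted p = 0.0719), that of Zfpm1 without any of these or control replicate 1 (highest adjusted p = 0.0764), and that of Tcf3 when all its probe sets were averaged (0.37, adjusted p = 0.222). Cbfa2t3 stood at -0.29 ± 0.22 in the same fit (adjusted p = 0.488), and the difference between it and these partners was not tested.

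Of 16 tested target genes of RUNX proteins in blood cells, 2 rose and 14 did not pass, with a median of -0.05. Both that rose are known as genes RUNX1 represses in megakaryocytes, but the list was not split into repressed and activated genes beforehand. A link between their rise and the Runx1 values was not tested. Myh10, a nonmuscle myosin heavy chain, read 401, 536, 545, 502 and 742 in Mll-deficient cells, against 160, 122, 138, 52.5 and 160 in control cells. Every Mll-deficient array lay above every control array, and the difference was 2.03 ± 0.27 (SE, limma adjusted p = 6.58e-04), or 1.14 when all its probe sets were averaged (adjusted p = 0.00194). Klf1, the erythroid activator, averaged 2860 ± 774 in Mll-deficient cells and 354 ± 145 in control cells (SD, n = 5 each), a difference of 3.00 ± 0.27 (adjusted p = 2.52e-05). Among the 14 were Spi1, which encodes PU.1, at -0.29 ± 0.33, and Csf1r, the macrophage colony-stimulating factor receptor gene, at -0.09 ± 0.50 (SE, limma adjusted p = 0.680 and 0.945). Mpo, the myeloperoxidase gene, was at 0.71 ± 0.34, Elane at 0.97 ± 0.41 and Nfe2 at -0.13 ± 0.23 (adjusted p = 0.240, 0.184 and 0.805). Below 0 lay 9 of the 16, and 4 had an unadjusted p under 0.05 in limma, where 20.7% of all tested genes had one.

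**Figure D4:**
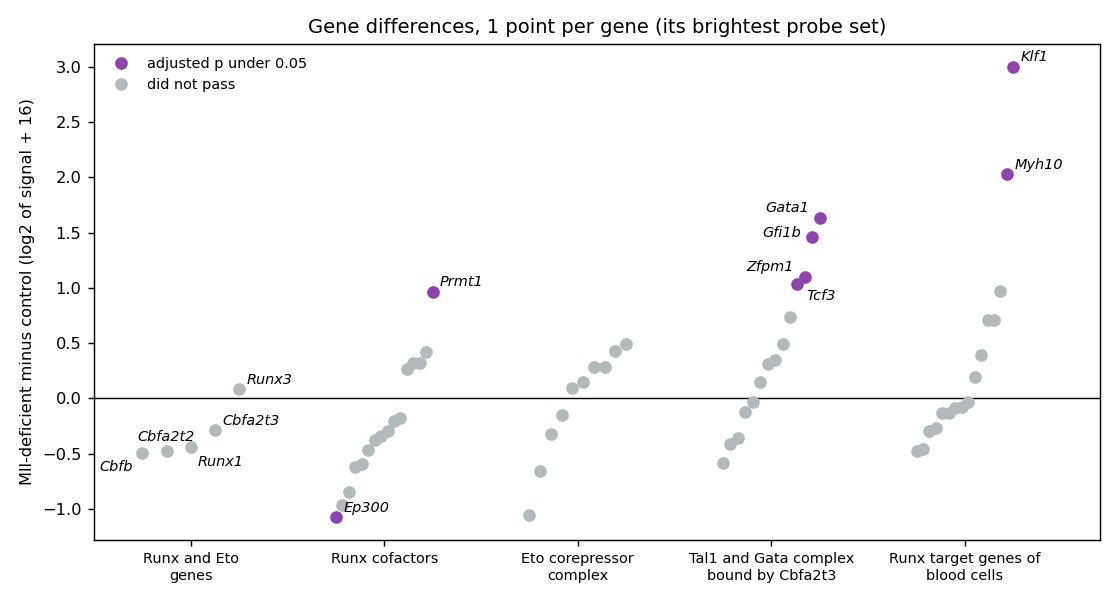
Log2 difference between Mll-deficient and control cells for the 5 tested Runx and Eto genes and for 4 lists of their partners and targets, 1 point per gene, with genes past an adjusted p of 0.05 in purple. The members lie between -0.49 and 0.09, while Klf1, Myh10, Gata1 and Gfi1b reach 3.00, 2.03, 1.63 and 1.46.

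Markers of erythroid cells moved with the groups beside these calls. Of 11 tested erythroid markers, which include Klf1 and Gata1, 8 rose and 3 did not pass, and their summed signal lay between 15027 and 17091 in Mll-deficient cells and between 3925 and 7381 in control cells. The highest control sum was that of control replicate 5, where Slc4a1, the anion exchanger gene of mature red cells, read 2751, against 11.1 to 97.2 in the other controls. Slc4a1 averaged 220 ± 77.9 in Mll-deficient cells and 579 ± 1215 in control cells, and on the log2 scale differed by 1.18 ± 0.90 (adjusted p = 0.499), so its linear means and its log2 difference have opposite signs. Alas2, the erythroid haem synthesis gene, read 130 in that array, against 2.32 to 36.5 in the other controls. Ermap, Aqp1 and Rhd, genes of the red cell membrane, rose by 3.40 ± 0.48, 2.40 ± 0.42 and 2.04 ± 0.36 (SE, limma adjusted p = 7.93e-04, 0.00402 and 0.00453). Tfrc, the transferrin receptor gene, was 1 of the 8 and did not pass without Mll-deficient replicate 5 or control replicate 3 or 4 (highest adjusted p = 0.0601). The part of erythroid cells in the values of Klf1, Myh10, Gata1, Gfi1b, Zfpm1 and Cbfa2t3 was not tested. Of the markers of other cells, 0 of 8 megakaryocyte genes, 0 of 12 granulocyte and monocyte genes, 0 of 11 B cell and plasmacytoid dendritic cell genes, 0 of 7 osteoblast and stroma genes and 0 of 4 endothelial genes passed in limma. At an unadjusted p under 0.05 these lists had 2, 4, 0, 0 and 0 genes. The 12 granulocyte and monocyte genes, Mpo and Elane among them, had a higher summed signal than any other marker list. It lay between 119843 and 200700 in Mll-deficient cells and between 112736 and 172229 in control cells. The median difference of these 12 genes was 0.14, with 3 below 0. The part of granulocytes and monocytes in the members' values was not tested. All 8 megakaryocyte genes had a difference below 0, with a median of -0.39 and a summed signal between 1839 and 3157 in Mll-deficient cells and between 2187 and 5403 in control cells.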

How the data were processed

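Each of 10 mice gave RNA for 1 array, and the RNA was amplified before biotin labelling, per the labels' protocols. The deposited values are linear signal intensity, from MAS5 5.0 per the submitters' processing notes. Every array has a trimmed mean of 150.001 with 2% dropped at each end. Of 45101 probe sets, 64 controls were left out, 34958 had 1 symbol, 932 several and 9211 none. Symbols were updated through Entrez identifiers in RefSeq (GRCm38.p6), where 34754 were found. Values were taken as log2(signal + 16), which understates changes of dim genes. Probe sets with a mean above the 40th percentile (27022), or the brightest probe set of each gene (12580 of 18193 genes), were fitted with limma 3.58.1 in R 4.3.3 (lmFit, eBayes with trend, two-sided, Benjamini-Hochberg over the whole table, threshold 0.05). Exact and permutation tests (100000 resamples, drawn within groups) used Python 3.11.15. Tested on simulated data for this comparison over 27022 probe sets, 0 of 50 changes of 0.5, 23 of 50 of 1, 46 of 50 of 2 and 50 of 50 of 3 log2 units were recovered, with 3 false calls of 122.

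The members and gene lists were chosen with earlier results of these data known. Named were all members, Kmt2a, up to 4 called genes of each list and the 3 genes most like each member. Others (Cd48, Kit, Procr, Slamf1, Nkg7, Gata2, Slc4a1, Alas2, Tfrc, Crebbp, Tle4, Bcl6, Hdac1 to Hdac3, Tal1, Ldb1, Lmo2, Spi1, Csf1r, Mpo, Elane, Nfe2, Cd3d, Cd8a and Gm16225) were chosen after their values were seen. The number of arrays limits the precision.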

Additional observations from a re-analysis of the deposited data

How the results depend on the processing

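The count of member probe sets past the threshold was 0 under every alternative run: offsets 1 and 64, quantile normalization, median centring, no filter and the 60th percentile filter, eBayes without trend or with a robust prior, array weights, the replicate block, the 3' to middle ratio as a covariate, and without each array in turn. The count of member genes was likewise 0 with averaged probe sets and without each array. The count over the whole table, 887, was 588 with no filter and 2433 with the ratio as a covariate, and 308 to 1129 without 1 array. It was below 887 by more than 1.5 times without Mll-deficient replicates 3 and 5 (383 and 308) and control replicates 1, 3 and 4 (402, 415 and 436). Over genes, 694 passed, and the count was 317 to 875 without 1 array, with 455, 364 and 317 without Mll-deficient replicates 1, 3 and 5 and 365, 391 and 374 without control replicates 1, 3 and 4. Median centring gave 556 calls higher and 127 lower, where the reported split is 573 and 314. The number of member pairs past the threshold was 1 with quantile normalization and 0 otherwise.

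Of 312 values of single member probe sets under alternatives, 17 had the other sign, all within 0.210 of 0 and with adjusted p of at least 0.782. The dimmest Cbfa2t3 probe set was at 0.0792, 0.0519 and 0.0288 with offset 1, quantile normalization and the covariate, and the dimmest Runx1 probe set at -0.0083 with the covariate. Without 1 array, the dimmest Runx1 probe set ran from -0.21 to 0.19, Runx3 from -0.0339 to 0.249, the second brightest Cbfa2t2 probe set from -0.21 to 0.0040, the dimmest from -0.22 to 0.0493 and the dimmest Cbfa2t3 probe set from -0.45 to 0.14. The cause was not tested. With the replicate block, 781 probe sets passed. Same-numbered arrays had correlations of -0.18 to 0.24 in their deviations from group means, and 1 of 5 numbers matched best with itself, so the numbers were not taken to pair the arrays. The slopes on the 3' to middle ratio, with and without control replicate 5, were added after seeing the data.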
